A study of Mus musculus with 2 samples.

Results

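Cd4, Cd8a, Cd8b1, Runx3 and Zbtb7b, the genes of the T cell coreceptors and of the pair of transcription factors that set which coreceptor a T cell keeps, were followed in CD8 T cells of the mouse colon in a model of colitis. They are 5 of the 12798 genes measured. The set was chosen by name, with a difference of Cd4 between the donor genotypes already known from these data. The Cd4 difference between groups is therefore given as a description with no test, and the tests below concern the other 4 genes. Of the 5 genes, 4 passed the filter on low counts, and Zbtb7b did not; Cd4 passed through its level in 1 group only.

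Colitis was induced by T cell transfer: Rag1 knockout mice, which lack mature T and B cells of their own, were given T cells. Every host received 100000 splenic wildtype naive CD4 T cells together with 500000 splenic CD8 T cells, which had been sorted as positive for TCR beta and CD8 beta and negative for CD4. The CD8 cells came from Bcl6fl/fl Cd8aCre donors, called Crep in the annotation, or from Bcl6fl/fl donors, called Cren. No source spells these names out, and they were read as Cre-positive and Cre-negative. Both genotypes carry the floxed Bcl6 allele, and Cre is driven by Cd8a regulatory sequence, so deletion follows Cd8a activity and not a tissue. Age was given as 8 to 12 weeks at the beginning of transfer, and CD8 cells were taken from the colon lamina propria 6 to 10 weeks after it.

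The CD4 and CD8 proteins sit beside the T cell receptor, bind MHC class II and class I, and bring the kinase LCK to the receptor. CD8 occurs as a heterodimer of alpha and beta chains on conventional cytotoxic T cells, and as an alpha-alpha homodimer that is well known from intestinal T cells. RUNX3 silences Cd4 and Zbtb7b and supports Cd8 expression in the CD8 lineage, whereas ThPOK, the product of Zbtb7b, holds the CD4 lineage by opposing this silencing. BCL6 is a transcriptional repressor needed by follicular helper T cells and by memory-like T cells.

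In GRCm38, Cd4 lay on the minus strand of chromosome 6 from 124864692 to 124888221. Cd8b1 (71322788 to 71337494) and Cd8a (71373427 to 71379173) lay on the plus strand of the same chromosome, 35932 bases apart. Runx3 occupied 135120652 to 135177990 on the plus strand of chromosome 4, and Zbtb7b 89377644 to 89394776 on the minus strand of chromosome 3. The promoters below are shown because RUNX proteins are known to act on Cd8a and Zbtb7b, and Runx3 is the RUNX gene of the CD8 lineage. They come from RefSeq (GRCm38.p6) and run from 250 bases before to 50 bases after an annotated start. Capitals mark every ACCACA or its reverse complement TGTGGT, a core motif of RUNX proteins, searched on both strands.
Cd8a, chr6:71373177-71373476, plus strand: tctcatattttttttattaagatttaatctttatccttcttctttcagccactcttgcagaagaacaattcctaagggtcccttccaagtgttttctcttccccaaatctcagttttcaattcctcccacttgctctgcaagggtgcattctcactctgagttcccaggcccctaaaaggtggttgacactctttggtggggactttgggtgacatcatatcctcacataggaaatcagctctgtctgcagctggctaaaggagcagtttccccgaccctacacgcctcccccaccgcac
Runx3, chr4:135120395-135120694, plus strand: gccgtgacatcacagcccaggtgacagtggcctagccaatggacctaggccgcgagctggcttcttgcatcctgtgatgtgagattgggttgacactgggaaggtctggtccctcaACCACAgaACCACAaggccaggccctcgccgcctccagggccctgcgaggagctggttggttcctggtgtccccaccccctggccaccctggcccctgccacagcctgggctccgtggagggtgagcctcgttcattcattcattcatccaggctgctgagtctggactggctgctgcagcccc
Zbtb7b, chr3:89387622-89387921, minus strand: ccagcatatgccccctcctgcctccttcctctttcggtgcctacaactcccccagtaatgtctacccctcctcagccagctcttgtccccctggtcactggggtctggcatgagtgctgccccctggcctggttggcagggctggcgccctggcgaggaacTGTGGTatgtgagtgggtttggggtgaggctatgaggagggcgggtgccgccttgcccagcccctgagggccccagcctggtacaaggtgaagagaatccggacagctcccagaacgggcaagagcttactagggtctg
The Runx3 window at the upstream start held 2 matches, set 2 bases apart, and the Zbtb7b window at the downstream start held 1. No match was found in the Cd8a window, in the second Runx3 window or in the second Zbtb7b window. Over all 32851 promoters of the table, 5506 (16.8%) held at least 1 match and 595 (1.81%) held at least 2. Of the 5 genes, 3 were matched in the promoter table; Cd4 and Cd8b1 were not used in this search.

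The 8562 cells, 4157 Crep and 4405 Cren, carried 8 hashtag antibodies, 4 per group, and were pooled into a single gene expression library, so no difference between captures could separate the groups. Hashtags held 900 to 1305 cells and 2635241 to 4201265 UMIs (unique molecular identifiers, each standing for 1 captured transcript). The median was 2714 UMIs per Crep cell and 2812 per Cren cell. Whether a hashtag stands for 1 mouse is not stated, and p-values therefore measure the spread among hashtags, which may be technical. Levels are CPM, the UMIs of a gene scaled to a common total per hashtag, and since the kit reads the 5′ end of each transcript they carry no length term. All 6 T cell identity genes listed (Cd3d, Cd3e, Cd3g, Trac, Trbc1 and Trbc2) were detected in both groups, with summed levels of 4739 to 5642 CPM in Crep hashtags and 4695 to 5234 CPM in Cren hashtags. Bcl6, the floxed gene, had 32.4, 29.9, 30.5 and 24.3 CPM in Crep hashtags 1 to 4, against 16.7, 17.6, 15.5 and 20.5 CPM in Cren hashtags 1 to 4. It was higher in the hashtags labelled Crep (log2 fold change 0.75, SE 0.14, adjusted p = 0.0293, edgeR). Counts are given per gene and not per exon, so this level does not check the deletion.

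Cd4 was a rare transcript in these cells and was found almost entirely in the hashtags labelled Crep. Crep hashtags 1 to 4 had 19, 31, 20 and 15 Cd4 UMIs, which is 6.28, 8.92, 6.35 and 5.69 CPM. Cren hashtags 1 to 4 had 2, 2, 0 and 0 UMIs, which is 0.476, 0.628, 0 and 0 CPM. The groups did not overlap: the lowest Crep hashtag stood far above the highest Cren hashtag. Cd4 averaged 6.81 ± 1.44 CPM in Crep against 0.276 ± 0.325 CPM in Cren (n = 4 hashtags each, SD), and the ratio of the summed levels (85 UMIs in Crep, 4 in Cren) was 23.1. Of the 9653 genes past the count filter, 316 (3.27%) had all 4 Crep hashtags above every Cren hashtag, and since this contrast was known when Cd4 was chosen, nothing is read from its place among them.

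The Cd4 signal was spread thinly over many cells. A Cd4 UMI was present in 17 of 1019, 28 of 1091, 19 of 1001 and 15 of 1046 cells of Crep hashtags 1 to 4, against 2 of 1305, 2 of 1105, 0 of 1095 and 0 of 900 cells of Cren hashtags 1 to 4. The 0 counts allow shares of up to 0.274% and 0.333% of cells in Cren hashtags 3 and 4 (3 counts of the total, counting error only). The share averaged 1.89% ± 0.488 over Crep hashtags, against 0.0836% ± 0.0972 over Cren hashtags (SD, n = 4 each). Among these 79 Crep cells, 74 had 1 Cd4 UMI, 4 had 2 and 1 had 3. The 4 Cren cells had 1 each. When every cell was thinned to 2000 UMIs, which kept 3171 Crep and 3468 Cren cells and left out 986 Crep and 937 Cren cells, the shares were 1.48% ± 0.133 in Crep and 0.0525% ± 0.0613 in Cren. Crep and Cren cells shared 1 droplet pool, and the source of these Cd4 UMIs was not tested. With 1 UMI in most of these cells, fewer Cd4-bearing cells and less Cd4 RNA per cell cannot be told apart.

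Crep cells with a Cd4 UMI also carried CD8 transcripts. Of the 79 cells, 68 (86.1%) had a Cd8a UMI, 76 (96.2%) a Cd8b1 UMI and 66 (83.5%) both, and 1 had neither. The 4078 other Crep cells had a Cd8a UMI in 80.4%, a Cd8b1 UMI in 88.3% and both in 71.9%. The cells with Cd4 were deeper, with a median of 3265 UMIs against 2706 in the other Crep cells. After thinning to 2000 UMIs the shares lay closer: Cd8a was seen in 77.1% of 70 cells with Cd4 and 75.2% of 3101 cells without it, and Cd8b1 in 88.6% and 85.2% of the same cells. Summed Cd8a stood at 1085 CPM in cells with Cd4 and 888 CPM in cells without it, and Cd8b1 at 1115 and 1120 CPM. By hashtag, Cd8a stood at 1300, 1152, 887 and 965 CPM in the cells with Cd4 of Crep hashtags 1 to 4, against 1016, 1042, 779 and 672 CPM in their cells without it, so it was higher beside Cd4 in every hashtag. The values with Cd4 rest on 17, 28, 19 and 15 cells. Of these cells, 24 lay in fine cluster 0 and 14 in fine cluster 2 of the annotation, both rich in Cd8a (below). The part of cluster in this difference was not tested. Cd8b1 went both ways, with 892, 1352, 946 and 1080 CPM in cells with Cd4 and 1049, 1068, 1221 and 1151 CPM in cells without it. Runx3 was seen in 29 of the 79 cells (36.7%, against 30.7% of the other Crep cells), and after thinning in 24.3% and 23.4%. Zbtb7b was seen in 0 of the 79 cells, and in 46 of the 4078 other Crep cells (1.13%). At so low a share, 79 cells are too few for a count of 0 to tell absence from a like share. Of the 4 Cren cells with Cd4, 2 had a Cd8a UMI, 2 had a Cd8b1 UMI and 1 had both.

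The share of Crep cells with Cd4 did not follow the amount of CD8 message in 1 direction. Among cells thinned to 2000 UMIs it was 1.15% (95% Wilson interval 0.604 to 2.16%) in cells with 0 Cd8a UMIs, 1.42% with 1, 1.96% with 2 to 3 and 1.06% (0.455 to 2.47%) with 4 or more. By Cd8b1 it was highest, 2.29%, with 1 UMI and lowest, 0.896%, with 4 or more. The intervals overlapped in both series.

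Markers of other cells were read in the same 79 cells. The shares of cells with these markers, here and in the next paragraphs, were taken without thinning. The cells with Cd4 were deeper (median 3265 UMIs, against 2706 in the other Crep cells), and the part of depth in these shares was not tested. All 79 had a UMI of a T cell identity gene. Of the 6 CD4 T cell markers, Tnfrsf4 (the costimulatory receptor OX40) was seen in 4 cells (5.06%, against 0.981% of the other Crep cells) and Izumo1r (folate receptor 4) in 2 (2.53%, against 0.343%). Cd40lg, Foxp3, Ikzf2 and Cxcr5 were at 0, and these were also rare in the other Crep cells, at 1.00%, 0.172%, 1.86% and 0.0490%. At least 1 CD4 T cell marker was present in 5 of the 79 cells (6.33%), against 4.24% of the other Crep cells. The summed level of these 6 markers was 15.6 to 25.1 CPM in Crep hashtags and 34.8 to 81.3 CPM in Cren hashtags. Most of it was Ikzf2 (8.71 CPM over Crep cells, 27.5 CPM over Cren cells) and Tnfrsf4 (5.53 and 14.0 CPM). Foxp3, Izumo1r and Cxcr5 were also lower in Crep, and Cd40lg was nearly level (4.31 and 4.13 CPM). The co-transferred wildtype CD4 T cells were given to hosts of both groups, and their part in the Cd4 result was not tested.

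Cd4 is also made by some myeloid and innate lymphoid cells. Of the 12 myeloid markers measured, 10 had a UMI in the 79 cells: Lyz2 in 16, Cd74 in 20, Itgax in 19, H2-Ab1 in 7, H2-Aa and H2-Eb1 in 3 each, C1qa, C1qb and C1qc in 2 each and Cd68 in 1. Csf1r and Itgam were at 0, and both were also rare in the other Crep cells, at 0.319% and 0.687%. Any myeloid marker was present in 62.0% of the cells with Cd4 and 55.1% of the other Crep cells, and the summed myeloid level overlapped between the groups (314 to 406 CPM in Crep hashtags, 338 to 403 CPM in Cren hashtags). Itgax is also on the list for unconventional CD8 alpha-alpha intestinal T cells. Of the markers of group 3 innate lymphoid cells, Ltb4r1 was seen in 1 cell and Kit in 0.
Any NK marker was present in 26.6% of cells with Cd4 and 31.7% of the others (Klre1 in 17 cells, Tyrobp in 7, Klra8 and Fcer1g in 1 each). The summed NK level overlapped between the groups, at 118 to 259 CPM in Crep hashtags and 53.0 to 135 CPM in Cren hashtags. Most of it was Klre1, at 134 CPM over Crep cells and 63.6 CPM over Cren cells. Klrb1c and Klra8 were also higher over Crep cells, and Tyrobp and Fcer1g were lower. Any gamma-delta T cell marker was present in 29.1% and 22.7% (Tcrg-C2 in 16 cells, Tcrg-C4 in 7, Tcrg-C1 in 2, Trdc in 0). Trdc, the delta chain constant region, had 87 UMIs over Crep cells and 16 over Cren cells. Tcrg-C1 was also slightly higher in CPM over Crep cells, and Tcrg-C2, Tcrg-C4 and Trdv4 were lower. The summed gamma-delta level overlapped (47.8 to 130 CPM in Crep hashtags, 70.7 to 166 CPM in Cren hashtags). Any marker of unconventional CD8 alpha-alpha T cells was present in 63.3% and 54.0% (Cd160 in 38 cells, Klra7 in 0). Their summed level overlapped, at 243 to 418 CPM in Crep hashtags and 336 to 440 CPM in Cren hashtags. Klra7 (12.5 CPM over Crep cells, 2.40 CPM over Cren cells) and Itgax (91.3 and 55.5 CPM) were higher in Crep. Cd160 (244 and 300 CPM), Fcer1g, Tyrobp and Kit were lower in Crep. A Klra7 UMI was present in 0.770% of Crep cells. B cell markers were present in 6 cells, by Cd79b and Ighm, and the epithelial markers in 0. The part of other cell types in the Cd4 result was not tested.

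**Figure D1:**
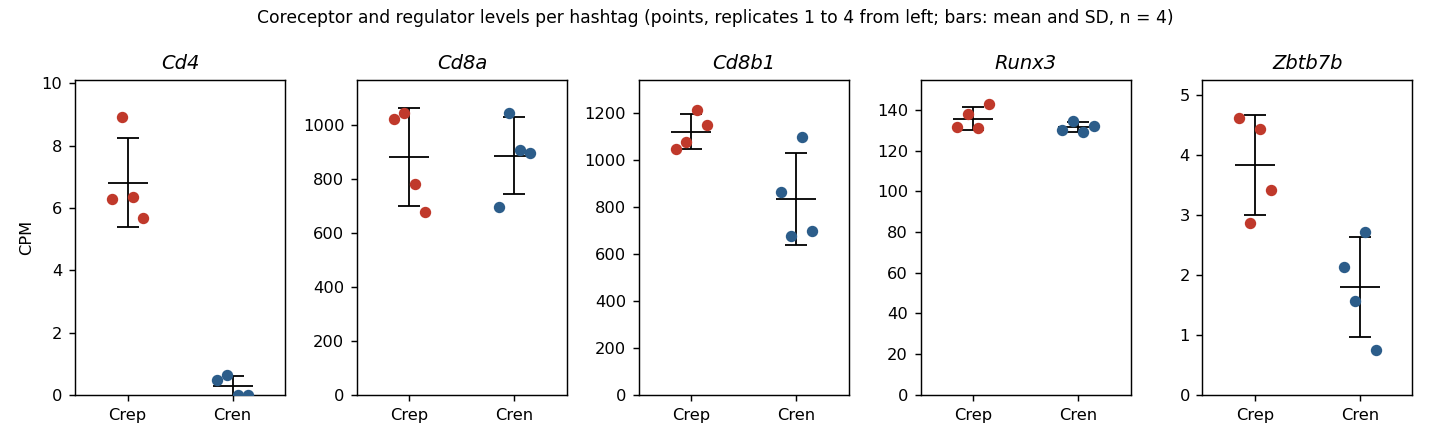
Levels of the 5 genes per hashtag in CPM, Crep left and Cren right in each panel; points are hashtags 1 to 4 from left and bars are mean and SD (n = 4). All Crep points lie above all Cren points for Cd4 and Zbtb7b, whereas the groups overlap for Cd8a, Cd8b1 and Runx3.

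Cd8a, the chain shared by both forms of CD8, stood at nearly the same mean level in the groups. It had 1021, 1046, 781 and 677 CPM in Crep hashtags 1 to 4, against 698, 1046, 906 and 897 CPM in Cren hashtags 1 to 4. The groups overlapped over most of their range, and the lowest single value was a Crep hashtag. Cd8a averaged 881 ± 181 CPM in Crep against 887 ± 143 CPM in Cren (n = 4 hashtags each, SD), with a log2 fold change of -0.00 (SE 0.16, adjusted p = 0.997, edgeR quasi-likelihood test with Benjamini-Hochberg adjustment over 9653 genes). Over those genes 59 (0.611%) passed an adjusted p of 0.05, and none of Cd8a, Cd8b1 and Runx3 was among them.

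Cd8b1, the beta chain of the heterodimer, had a higher mean in Crep that did not pass the test. Crep hashtags 1 to 4 had 1046, 1077, 1215 and 1150 CPM, against 865, 679, 1100 and 698 CPM in Cren hashtags 1 to 4. Only Cren hashtag 3 reached into the Crep range. Cd8b1 averaged 1122 ± 75.8 CPM in Crep against 835 ± 195 CPM in Cren, and the log2 fold change was 0.43 (SE 0.15, adjusted p = 0.292, edgeR). Without Cren hashtag 3 the log2 fold change was 0.59 with an adjusted p of 0.0094 (edgeR). In that fit 121 genes passed, against 59 with all hashtags. Cd8b1 passed in no other of the 18 alternatives run for this gene. Over these its log2 fold change ran from 0.27 to 0.59 and the adjusted p from 0.0094 to 0.832. Cren hashtag 3 held 109 of the 112 cells of fine cluster 10, a cluster that stood at 1241 CPM of Cd8b1. Without that cluster, an alternative chosen after seeing the data, Cren hashtag 3 still had 1082 CPM and the log2 fold change was 0.44 (adjusted p = 0.248).

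Runx3 was the steadiest of the 5 genes. It had 132, 138, 131 and 143 CPM in Crep hashtags 1 to 4, against 130, 135, 129 and 132 CPM in Cren hashtags 1 to 4. The hashtags of both groups lay within a narrow band. The log2 fold change was 0.05 (SE 0.07, adjusted p = 0.883, edgeR), and a Runx3 UMI was seen in 23.4% ± 1.51 of Crep and 22.4% ± 0.309 of Cren cells thinned to 2000 UMIs (exact two-sided permutation test, p = 0.2, SD, n = 4 each).

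Zbtb7b was as rare as Cd4 and also stood higher in Crep, by a smaller factor. Crep hashtags 1 to 4 had 14, 10, 14 and 9 UMIs, which is 4.63, 2.88, 4.44 and 3.42 CPM. Cren hashtags 1 to 4 had 9, 5, 9 and 2 UMIs, which is 2.14, 1.57, 2.73 and 0.757 CPM. The groups did not overlap, though the margin between the nearest pair of hashtags was small; of the 3145 genes under the count filter, 56 (1.78%) had all Crep hashtags above every Cren one. Zbtb7b averaged 3.84 ± 0.835 CPM in Crep against 1.80 ± 0.840 CPM in Cren. The gene did not pass the count filter; fitted without the filter, its log2 fold change was 1.04 (SE 0.39, adjusted p = 0.314, edgeR). A Zbtb7b UMI was seen in 1.11% of cells in Crep and 0.547% in Cren (exact permutation p = 0.0286, the smallest that 4 against 4 can give, 0.0571 adjusted over Runx3 and Zbtb7b). After thinning the shares were 0.809% and 0.395% (exact permutation p = 0.114, adjusted p = 0.2).

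Most cells carried UMIs of both CD8 chains, and no class of cells differed between the groups past adjustment. Over all 8562 cells, 5855 (68.4%) had UMIs of both chains, 986 (11.5%) of Cd8a only, 1372 (16.0%) of Cd8b1 only and 349 (4.08%) of neither. A cell with 1 chain only may hold the other below detection at this depth. With every cell thinned to 2000 UMIs, both chains were seen in 66.3%, 69.0%, 64.2% and 55.4% of cells of Crep hashtags 1 to 4, against 49.9%, 52.2%, 60.8% and 50.4% of Cren hashtags 1 to 4. Crep hashtag 4 fell among the Cren hashtags and the other 3 lay above all of them. The mean was 63.8% ± 5.89 in Crep and 53.3% ± 5.10 in Cren (exact two-sided permutation test, p = 0.0571, adjusted over 4 shares 0.114). Cells with Cd8a only made up 11.1% ± 2.63 of Crep and 21.2% ± 6.36 of Cren cells (exact permutation p = 0.0571, adjusted 0.114). Cd8b1 alone was seen in 21.5% ± 6.73 of Crep and 19.3% ± 5.02 of Cren cells (exact permutation p = 0.629), and neither chain in 3.59% ± 0.500 and 6.24% ± 2.07 (exact permutation p = 0.0857, adjusted 0.114).

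**Figure D2:**
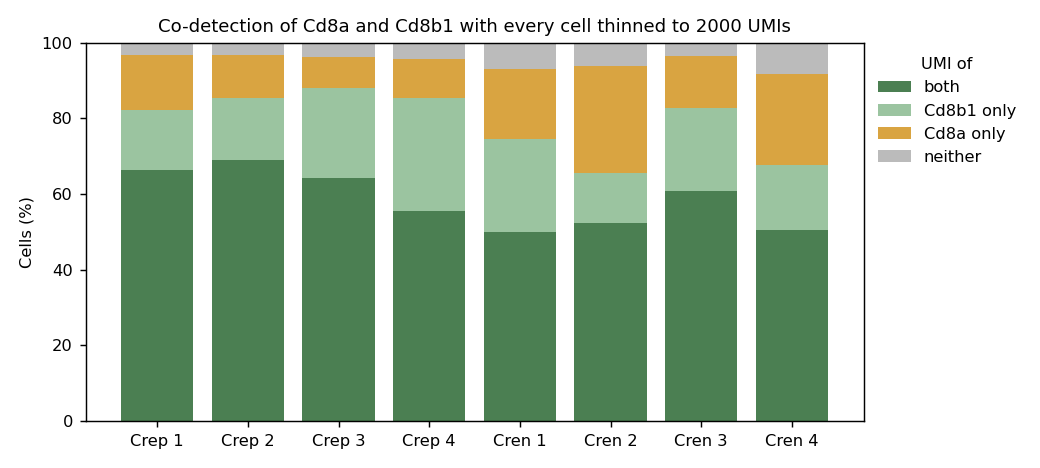
Share of cells (%) with UMIs of both CD8 chains, of 1 chain only or of neither in each hashtag, Crep hashtags left and Cren hashtags right, every cell thinned to 2000 UMIs. Cells with Cd8a only take 8.23 to 14.5% of Crep hashtags and 13.8 to 28.3% of Cren hashtags, and the ranges overlap only by Crep hashtag 1 and Cren hashtag 3.

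The ratio of Cd8a to Cd8b1 UMIs varied widely between hashtags of the same group. It was 0.976, 0.971, 0.643 and 0.588 in Crep hashtags 1 to 4, against 0.807, 1.54, 0.824 and 1.29 in Cren hashtags 1 to 4. Crep hashtags 3 and 4 lay below all Cren hashtags, and Crep hashtags 1 and 2 lay among them. The mean log2 ratio was -0.37 ± 0.386 in Crep and 0.10 ± 0.468 in Cren, a difference of -0.47 (SD, n = 4 each, exact two-sided permutation test, p = 0.171). With the fine clusters weighted equally the difference was -0.16 (exact permutation p = 0.371). A UMI ratio of a pair of genes also holds their unequal capture, so its size is not a ratio of molecules, whereas its change between cells of 1 library is on a common scale.

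The 12 fine clusters of the deposited annotation differed far more in Cd8a than the groups did. These clusters were built from all genes of the same cells, so their differences are given with no test. Pooled over hashtags, the Cd8a level was 1299, 662, 1278, 1104, 482, 564, 526, 789, 545, 651, 1225 and 1748 CPM in clusters 0 to 11. Cd8b1 stood at 948, 944, 696, 944, 1310, 859, 1119, 1198, 1080, 415, 1241 and 513 CPM in the same order. The levels of the chains did not run in parallel across clusters: cluster 11 had the highest Cd8a and the lowest Cd8b1 but for cluster 9, and cluster 4 had the highest Cd8b1 and the lowest Cd8a, whereas cluster 10 was rich in both. Across the 12 clusters Pearson's r between log2 levels of the chains was -0.33, and the points share 1 library and the same 8 hashtags.

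By ratio of Cd8a to Cd8b1, the clusters with at least 20 cells in 4 or more hashtags ran from cluster 2 at the top to cluster 4 at the bottom. The mean log2 ratio was 0.80 ± 0.226 in cluster 2, 0.47 ± 0.366 in cluster 0 and 0.20 ± 0.228 in cluster 3 (SD, n = 8 hashtags each). It was -0.42 ± 0.424 in cluster 1 (n = 8), -0.52 ± 0.204 in cluster 7 (n = 4), -0.58 ± 0.583 in cluster 5 (n = 7) and -0.94 ± 0.329 in cluster 6 (n = 8). Clusters 8 and 4 came last, with -1.14 ± 0.350 (n = 5) and -1.45 ± 0.214 (n = 6). No neighbours in this order stood apart by more than their SDs. For Cd8a alone, clusters 2 (1313 ± 116 CPM) and 0 (1287 ± 85.5 CPM) stood apart from cluster 3 (1030 ± 141 CPM), and for Cd8b1 clusters 4 (1291 ± 91.4 CPM) and 7 (1222 ± 25.8 CPM) stood apart from cluster 8 (1047 ± 104 CPM). The order of these Cd8b1 means mixes cluster with group. All 4 hashtags of cluster 7 and 4 of 6 of cluster 4 were Crep, and 4 of 5 of cluster 8 were Cren. Within Crep hashtag 4, Cd8b1 stood at 1357, 1201 and 1108 CPM in clusters 4, 7 and 8, the last from 22 cells. Cren hashtags 1 and 3 had 1194 and 1248 CPM in cluster 4, against 988 and 1200 CPM in cluster 8. Cluster 11, with 73 cells, had a pooled ratio of 3.41, and cluster 10, nearly all of 1 hashtag, 0.987.

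Co-detection ran broadly in the same order. Cells with Cd8a only made up 21.3% of cluster 2 and 14.5% of cluster 0, but 4.03% of cluster 4 and 4.75% of cluster 6. Cells with Cd8b1 only made up 33.6% of cluster 4, 26.7% of cluster 8 and 25.7% of cluster 6, but 4.53% of cluster 2 and 5.53% of cluster 0. Median depth ran from 2367 to 3020 UMIs in these 5 clusters, and was lowest in cluster 4. Cluster 9 had neither chain in 31.9% of its 119 cells, at a median of 1007 UMIs per cell.

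**Figure D3:**
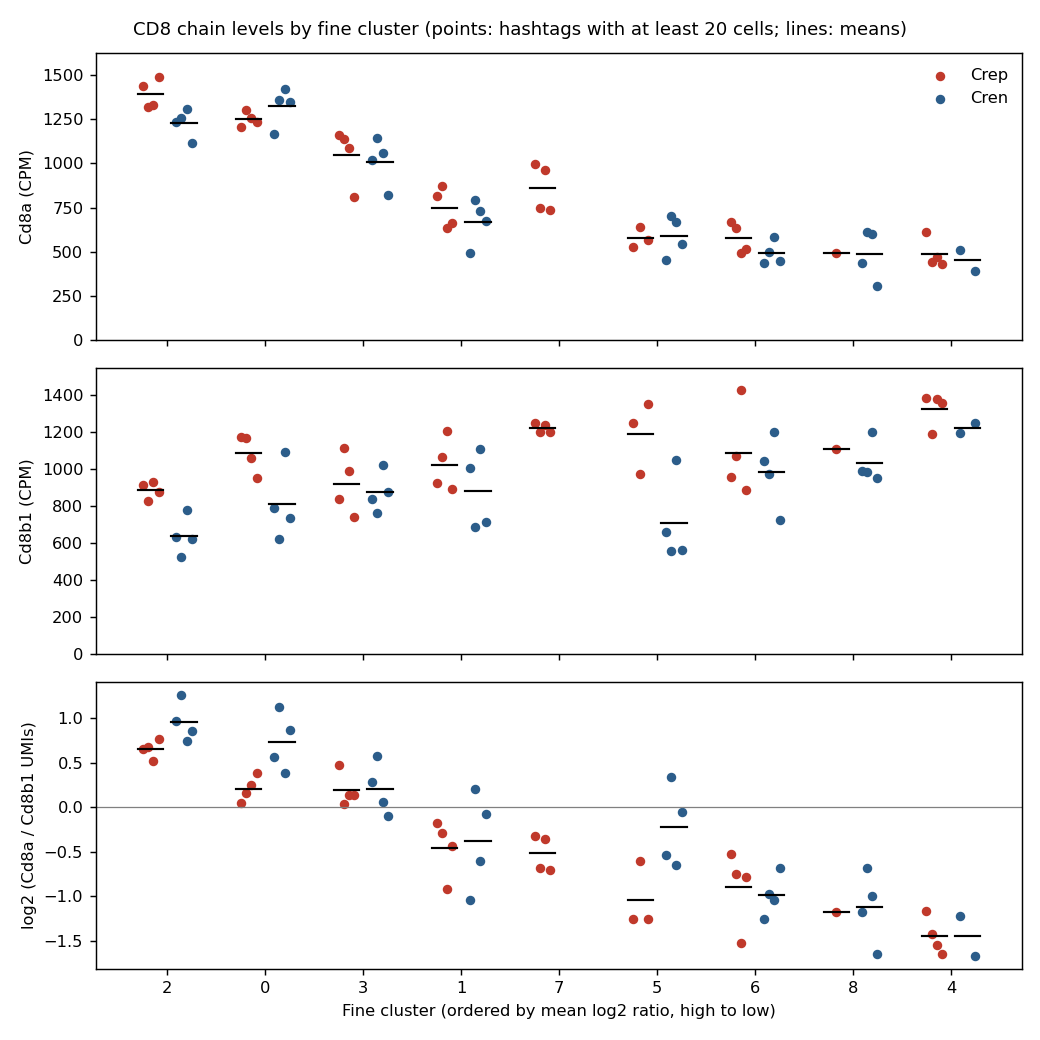
Cd8a (CPM, top), Cd8b1 (CPM, middle) and the log2 ratio of their UMIs (bottom) in 9 fine clusters ordered by mean log2 ratio, Crep hashtags left and Cren hashtags right in each cluster; points are hashtags with at least 20 cells in the cluster and lines are means. In cluster 0 all 4 Crep ratios lie below all Cren ratios, and in cluster 2 the Crep hashtags lie above all Cren hashtags for Cd8b1.

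Runx3 was nearly level across clusters. It stood between 113 and 149 CPM in 9 of the 12 clusters, with 171 CPM in cluster 8, 265 CPM in cluster 9 and 50.02 CPM in cluster 11. The last of these rests on 16 UMIs in 73 cells, and cluster 9 on 46 UMIs in 119 shallow cells. In cluster 8 the hashtag mean was 204 ± 73.2 CPM (SD, n = 5), and no neighbours in the order of Runx3 levels stood apart by more than their SDs. Zbtb7b had 0 to 12 UMIs in each cluster. It was most frequent in clusters 10 (1.79% of cells, 2 cells), 5 (1.62%, 12 of 743 cells) and 7 (1.52%, 9 of 592 cells). In cluster 0 the Crep cells held 4 UMIs and the Cren cells 0, and in cluster 5 the hashtag means were 7.25 ± 10.3 CPM in 3 Crep hashtags and 5.52 ± 5.34 CPM in 4 Cren hashtags, wide spreads that overlap.

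Cd4 in Crep cells was found in 11 of the 12 clusters. Among clusters 0 to 7, each with at least 260 Crep cells, it was most frequent in clusters 2 and 0, both rich in Cd8a. A Cd4 UMI was seen in 14 of 370 cells of cluster 2 (3.78%, 95% Wilson interval 2.27 to 6.25%), 24 of 652 of cluster 0 (3.68%, 2.49 to 5.42%), 9 of 367 of cluster 1 (2.45%, 1.29 to 4.59%) and 14 of 718 of cluster 3 (1.95%, 1.17 to 3.25%). The share was 1.54% in cluster 5 (4 of 260 cells) and 1.40% in cluster 7 (8 of 570). Clusters 4 and 6, at the low end of the CD8 ratio, had Cd4 in 2 of 748 cells (0.267%, 0.0734 to 0.970%) and 1 of 335 cells (0.299%, 0.0527 to 1.67%). Cluster 8, which lies between these in the order of the ratio, had Cd4 in 1 of 53 cells (1.89%, 0.334 to 9.94%). Clusters 9 and 11 had it in 1 of 63 and 1 of 19 cells (5.26%, 0.935 to 24.6%, in cluster 11), and cluster 10 in 0 of 2. In Cren, clusters 0, 1, 2 and 5 held 1 such cell each. Intervals cover counting error only and cells of 1 hashtag share their source.

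The per-hashtag counts behind these shares were small but came from several hashtags. In cluster 0, Cd4 was seen in 5 of 183, 11 of 264, 5 of 153 and 3 of 52 cells of Crep hashtags 1 to 4, and in cluster 2 in 6 of 138, 2 of 134, 3 of 73 and 3 of 25. All 4 hashtags contributed in both clusters. In cluster 4, hashtags 1 to 4 had 1 of 164, 1 of 68, 0 of 183 and 0 of 333 cells. In cluster 7, which held 383 of the 1046 cells of Crep hashtag 4, the counts were 2 of 82, 1 of 80, 0 of 25 and 5 of 383.

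**Figure D4:**
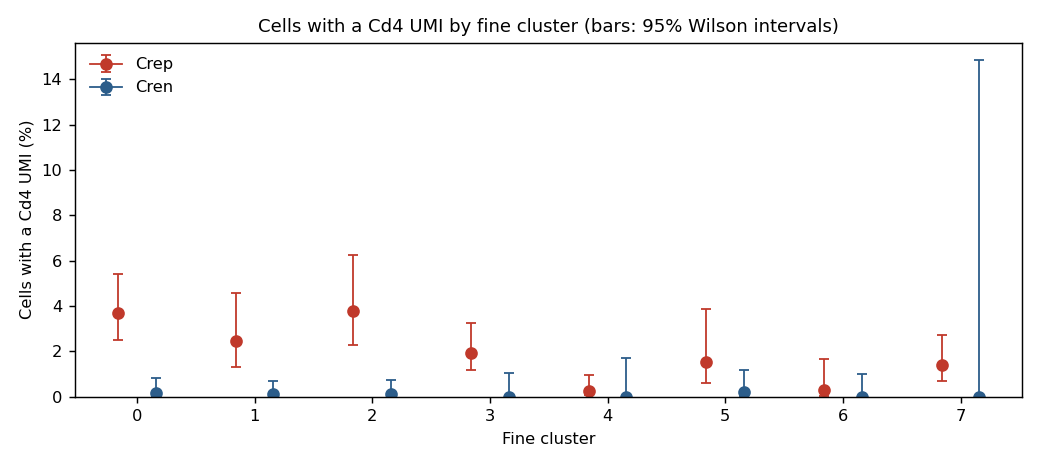
Share of cells (%) with a Cd4 UMI in fine clusters 0 to 7, Crep left and Cren right in each; points are shares over all cells of the group and bars are 95% Wilson intervals, which cover counting error only. Crep shares are highest in clusters 0 and 2 and near 0 in clusters 4 and 6, and the tall Cren bar in cluster 7 rests on 22 cells.

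Within clusters, group differences were tested in 6 fine clusters, those where Crep and Cren each had 3 or more hashtags of 20 or more cells. The CD8 chains and Runx3 did not pass in any of them. Cd8b1 came nearest in cluster 2, where the lowest Crep hashtag exceeded the highest Cren hashtag: it averaged 887 ± 45.6 CPM in Crep against 640 ± 104 CPM in Cren (n = 4 hashtags each, SD; log2 fold change 0.48, SE 0.12, adjusted p = 0.0825, edgeR). In that cluster 14 of 4995 genes passed (0.28%), and 1.96% had all Crep hashtags above every Cren hashtag. Cd8a in the same cluster stood at 1395 ± 82.6 CPM in Crep against 1230 ± 81.3 CPM in Cren, with no overlap (log2 fold change 0.17, SE 0.10, adjusted p = 0.893, edgeR). In cluster 0, Cd8b1 averaged 1088 ± 105 CPM in Crep and 811 ± 201 CPM in Cren (log2 fold change 0.46, SE 0.13, adjusted p = 0.134, edgeR; 0.98% of 5409 genes passed). Cren hashtag 3, at 1094 CPM, lay within the Crep range of that cluster.
Cluster 5 had the largest log2 fold change of Cd8b1, with 1191 ± 195 CPM in 3 Crep hashtags and 707 ± 232 CPM in 4 Cren hashtags (log2 fold change 0.74, SE 0.23, adjusted p = 0.266, edgeR; 1.19% of 4044 genes passed). The groups overlapped there, as the lowest Crep hashtag (974 CPM) lay below the highest Cren hashtag (1048 CPM). In clusters 1, 3 and 6 the log2 fold changes of Cd8b1 were 0.21, 0.10 and 0.10 (adjusted p 0.872, 0.984 and 1.00, edgeR), where 0.173%, 0.0% and 0.0269% of the genes tested passed. Without Cren hashtag 3, Cd8b1 passed in clusters 0 (0.63, adjusted p = 7.3e-04), 2 (0.58, adjusted p = 0.0234) and 5 (0.96, adjusted p = 7.8e-07, 3 hashtags in each group; edgeR). The hashtag left out had the highest Cd8b1 of the Cren hashtags in each of these clusters. Its omission also raised the calls of all genes, summed over the 6 clusters, from 124 to 210. Cd8b1 did not pass in any cluster when another hashtag was left out. The difference of group effects between the largest clusters, cluster 1 minus cluster 0, was -0.21 (SE 0.10) for Cd8b1, 0.22 (SE 0.10) for Cd8a and 0.26 (SE 0.21) for Runx3, with adjusted p of 0.782, 0.768 and 0.925 (edgeR interaction with the hashtag as a block; 0.132% of 6080 genes passed).

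The ratio within clusters was computed as an alternative added after the data had been seen. In cluster 0 the ratio was 1.03, 1.12, 1.18 and 1.30 in Crep hashtags 1 to 4, against 1.48, 2.17, 1.30 and 1.83 in Cren hashtags 1 to 4. All Crep hashtags lay below every Cren hashtag, with Crep hashtag 4 and Cren hashtag 3 nearly touching. The difference of log2 ratios was -0.53 (exact two-sided permutation test, p = 0.0286, the smallest possible, 0.171 adjusted over 6 clusters). It was -0.30 in cluster 2 (exact permutation p = 0.0571, 3 of 4 Crep hashtags below every Cren hashtag) and -0.81 in cluster 5 (exact permutation p = 0.114). In clusters 1, 3 and 6 it was -0.08, -0.01 and 0.09.

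Other factors known to act on Cd4, Cd8, Runx3 or Zbtb7b, or on the CD8 lineage, were read as a list of 36 genes, of which 34 passed the count filter. Of these, 1 gene, Bcl6 itself, passed as higher in Crep and none passed as lower, beside 59 calls among all 9653 genes (0.611%). An unadjusted p under 0.05 (edgeR) was found for 2 genes higher and 4 lower in Crep, beside 549 higher and 527 lower among all 9653 genes. The log2 fold changes of the 34 listed genes were positive for 18 and negative for 16, with a median of 0.02, beside -0.00 over all 9653 genes. The smallest p after Bcl6 was that of Tcf7, which encodes TCF1 of stem-like and developing T cells, with 66.3 ± 19.7 CPM in Crep and 152 ± 25.5 CPM in Cren (log2 fold change -1.19, SE 0.23, adjusted p = 0.0914, edgeR). Cbfb, the partner subunit of RUNX proteins, had 57.3 ± 2.27 CPM in Crep and 55.1 ± 2.30 CPM in Cren, and Runx1 134 ± 14.2 and 131 ± 14.2 CPM; neither passed.
Of 22 genes of coreceptor signalling, 0 passed at an adjusted p of 0.05 by edgeR, and 3 had an unadjusted p under 0.05 (2 higher, 1 lower), a share near the 11.1% of all genes tested. Lck, the kinase held by both coreceptors, had 748 ± 24.0 CPM in Crep and 685 ± 80.4 CPM in Cren (log2 fold change 0.13, adjusted p = 0.636, edgeR). The smallest p values were those of Cd5, a receptor that dampens T cell receptor signals (118 ± 32.8 CPM in Crep, 180 ± 25.0 CPM in Cren, adjusted p = 0.245, edgeR), and Cd3g, a chain of the receptor complex (1647 ± 124 and 1415 ± 150 CPM, adjusted p = 0.349, edgeR). The median log2 fold change of these genes was 0.07.
Of 9 genes of MHC class I, the ligand of CD8, and its peptide loading, 8 were tested and 0 passed by edgeR, 5 had an unadjusted p under 0.05, all higher in Crep, where 5.69% of all genes tested did so, and the median log2 fold change was 0.23. Tapbp, the peptide loading factor tapasin, had 152 ± 3.83 CPM in Crep and 122 ± 15.8 CPM in Cren (log2 fold change 0.32, adjusted p = 0.143, edgeR), and H2-T23, which encodes the nonclassical molecule Qa-1, 569 ± 35.8 and 472 ± 54.2 CPM (0.27, adjusted p = 0.204, edgeR). B2m, the invariant chain, had 1939 ± 73.9 CPM in Crep and 1991 ± 105 CPM in Cren.

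The genes beside the coreceptor loci did not pass either. Lag3, the nearest measured gene to Cd4 on that side at 16139 bases and itself a receptor for MHC class II, had 77.9 ± 13.8 CPM in Crep and 68.1 ± 16.7 CPM in Cren (log2 fold change 0.20, adjusted p = 0.761, edgeR). Of the other neighbours tested, Ptms, Mlf2, Tpi1 and Usp5 around Cd4 had log2 fold changes of 0.51, 0.04, -0.13 and 0.01. Around the CD8 pair, Smyd1, Krcc1, Rmnd5a and Rnf103 had 0.68, 0.01, -0.18 and -0.07. Adjusted p ran no lower than 0.328, for Smyd1 (edgeR), and Cdca3, Thnsl2 and 1700040L08Rik did not pass the count filter.

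The genes most like each member were found by Pearson's r of log2(CPM + 1), as a description with no test over points that share 1 library. Across the 12 fine clusters, Cd8a was matched most closely by Cd160 (r = 0.957), a receptor of cytotoxic and intestinal T cells, then by Lcp1 (0.944) and Bri3bp (0.909). Cd8b1 was matched by Vsig10l (0.979), Phf11b (0.971) and 2510039O18Rik (0.97), and Runx3 by Ncoa1 (0.975), Hmgxb4 (0.972) and Fam219a (0.972). Vsig10l and Fam219a are low, at 4.25 and 4.61 CPM over all cells. The small clusters 9 and 11, with 119 and 73 cells, had the lowest Cd8b1 levels (415 and 513 CPM). They also held the highest and lowest Runx3 levels (265 and 50.02 CPM). How far the r values of Cd8b1 and Runx3 rest on these clusters was not tested. Across the 8 hashtags, Cd4 was matched by Agpat2 (0.971), Anapc11 (0.968) and Gm26614 (0.961), and Zbtb7b by Sytl2 (0.967), Nudt18 (0.964) and Efhd2 (0.958). Cd4 and Zbtb7b both stood higher in every Crep hashtag than in any Cren hashtag. These r values therefore also hold the group difference, which was known for Cd4 beforehand, and no shared regulation is read from them.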

How the data were processed

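The authors deposited raw UMI counts for 12798 genes in 8562 cells, with an annotation that gave each cell's hashtag, group, 12 fine clusters (resolution 0.9) and 8 coarse clusters (resolution 0.6). The mitochondrial percent in that annotation was deposited by the authors; scores without a unit, such as UMAP coordinates deposited by the authors, were not used. Per the submitters' processing notes the tools were Cell Ranger 7.0.0, bcl2fastq 2.20.0.422 and Seurat 4.3.0, on mm10. In the values, no cell had fewer than 500 genes or over 3.0% mitochondrial UMIs. No doublet caller was run; 115 cells (1.34%) whose hashtag calls disagreed were kept, and left out in an alternative.

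Counts were summed per hashtag, and hashtags were the replicates. Crep minus Cren was tested with edgeR 4.0.16 (quasi-likelihood, TMM, filterByExpr, Benjamini-Hochberg over all genes tested, threshold 0.05) in R 4.3.3, over all cells and within 6 fine clusters, where a hashtag entered with 20 or more cells and Crep and Cren each needed 3 hashtags. DESeq2 1.42.0 and limma 3.58.1 were alternatives. Single values had exact two-sided permutation tests over all splits of the hashtags, whose smallest p is 0.0286. They were computed in Python 3.11.15, and the computation was checked against scipy 1.17.1 on random numbers. Zbtb7b did not pass the filter and Cd4 was given no test. The fitting script was tested on simulated data. Shares used cells thinned to 2000 UMIs. The coordinates are from GENCODE vM21. The 5 genes and all gene lists were chosen with earlier results of these data known. Genes named were the 5 members, markers of other cell types and the 3 genes most like each member. From each list, the genes that passed or had the 2 smallest p values were named. The 3 neighbours on each side of each locus were named too. Cbfb, Runx1, Lck and B2m were added for their role, after values were seen. An item withheld from this text is not reported here.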

Additional observations from a re-analysis of the deposited data

How the results depend on the processing

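The count of genes that passed over all cells was 59 with the settings above, 143 with DESeq2, 37 with limma-voom, 26 without fine cluster 7 (the largest share of any hashtag), 8 with fine clusters weighted equally, and 14 to 121 when 1 hashtag was left out, the highest without Cren hashtag 3. Summed over 6 fine clusters it was 124, with 65 over coarse clusters and 55 to 210 without 1 hashtag. For the interaction it was 8, with 4 over coarse clusters and 4 to 13 without 1 hashtag. With the hashtag number as a replicate block 103 genes passed; same-numbered hashtags correlated at -0.04, 0.14, 0.18 and 0.12 and Crep hashtag 1 correlated best with Cren hashtag 2, while the other 3 Crep hashtags correlated best with their own number. No label ties the numbers to a shared mouse, day or batch and 1 of the 4 correlations is below 0, so no pairing was used; the block changed no call of Cd8a, Cd8b1 or Runx3 (Cd8b1 0.45, adjusted p = 0.069, edgeR).

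Changes of sign were of values near 0, and their cause was not tested. Cd8a over all cells had a log2 fold change of 0.11 with clusters weighted equally, 0.012 without fine cluster 10 and -0.11 to 0.11 without 1 hashtag. Within clusters and without 1 hashtag, Cd8a ran from -0.0018 to 0.22 (cluster 1), -0.0012 to 0.13 (cluster 3) and -0.14 to 0.084 (cluster 5, where it was 0.041 at 10 cells per hashtag and 0.027 with limma-voom). Cd8b1 ran from -0.019 to 0.20 (cluster 3) and -0.065 to 0.20 (cluster 6). Runx3 ran from -0.12 to 0.029 (cluster 0), -0.16 to 0.10 (cluster 3) and -0.35 to 0.024 (cluster 5). The ratio difference was 0.091 within cluster 6 and -0.61 to -0.29 without 1 hashtag. The Cd8b1-only share differed by -0.575 to 4.13 percentage points without 1 hashtag, and the Runx3 share by -0.0687 points without thinning. With 4 hashtags a group, the at most 31 UMIs of Cd4 and 14 of Zbtb7b per hashtag limit the precision of both.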

Other observations

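Cells of the Crep hashtags had a lower median share of mitochondrial UMIs (0.64%, 0.65%, 0.64% and 0.615% in Crep hashtags 1 to 4, against 0.75%, 0.73%, 0.67% and 0.805% in Cren hashtags 1 to 4); its part in the levels of the coreceptor genes was not tested.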
